A study of Mus musculus with 12 samples.

Results

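The genes described here are 32 genes of cholesterol and fatty acid synthesis, out of 28793 genes in an expression table of intestinal crypts. The mice were C57BL/6, 3 months of age, and the tissue was large intestine. They were chosen by name as members of these pathways, and all 32 had a row in the table. Of these, 31 matched by symbol, and Msmo1 matched by its gene identifier because the table lists it under the older symbol Sc4mol. By role they fall into 8 genes of the mevalonate steps up to squalene, 10 genes that turn squalene into cholesterol, 5 regulators, 6 genes of fatty acid synthesis and desaturation, and 3 genes of polyunsaturated fatty acid synthesis. The first and second of these groups are called the sterol branch (18 genes) and the last ones the fatty acid branch (9 genes), and the regulators belong to neither.

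RNA was sequenced from mice that differ in Tert, the gene for the reverse transcriptase of telomerase, which extends chromosome ends. From GFP-sorted crypt base columnar cells, labelled stem or progenitor cells, there were 3 libraries of heterozygous mice (mTert HET, generation 0) and 3 of mTert null mice of generation 3 (null G3). From unsorted crypt epithelium there were 2 libraries of mTert HET mice, 2 of mTert null mice of generation 4 (null G4) and 2 of generation 4 epithelium labelled mTert reactivated, whose descriptions carry the tag G4tam. The agent and construct behind the reactivation, the gene that drives GFP, and the sex of the mice were not given in the sources used here, and the libraries are called biological replicates without naming animals, so the p-values speak only of how these libraries vary, which may be technical variation.

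Cholesterol and fatty acids are both built from acetyl-CoA in the cytosol. Sterols are made through mevalonate, isoprenoid units and squalene, and fatty acids through malonyl-CoA, after which desaturases and elongases add double bonds and length. The transcription factors SREBP2 (Srebf2) and SREBP1 (Srebf1) are held in the endoplasmic reticulum by Scap and the Insig proteins while sterols are plentiful, and when released they switch on most genes of both pathways. The crypt epithelium divides rapidly and needs new membrane lipid for each division.

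Because much of the sterol branch is known to be driven through short motifs near the transcription start, promoter sequence is shown for 3 genes. Of the genes with a single RefSeq promoter entry, Msmo1 and Acat2 in the sterol branch and Fads2 and Elovl5 in the fatty acid branch had the smallest p-values in null G4 against heterozygous crypts (Pmvk, whose p was smaller than that of Acat2, has 2 entries). Acat2 and Elovl5 are shown, since most of the window of Msmo1 and of Fads2 lies in an annotated first exon, and Hmgcs1 was added after its match was seen, as the member with a match to the sterol element searched. The sequences are from RefSeq for GRCm38.p6, 5′ to 3′ on the gene's strand, and cover up to 250 bases before the start, without bases that GENCODE places in an exon. They lie at chr13:119690101-119690350 (plus strand) for Hmgcs1, chr17:12960748-12960975 (minus strand) for Acat2 and chr9:77917115-77917363 (plus strand) for Elovl5. On either strand, capitals mark TCACNCCAC, a form of the sterol regulatory element, CCAAT, the letters bound by the NF-Y factor, GGGCGG, the core of the site of Sp1, and CACGTG, an E-box.
Hmgcs1: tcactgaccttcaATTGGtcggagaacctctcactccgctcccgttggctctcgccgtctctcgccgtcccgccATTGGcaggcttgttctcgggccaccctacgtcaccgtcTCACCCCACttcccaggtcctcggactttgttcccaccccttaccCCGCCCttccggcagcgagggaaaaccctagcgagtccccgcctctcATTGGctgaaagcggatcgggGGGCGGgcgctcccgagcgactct
Acat2: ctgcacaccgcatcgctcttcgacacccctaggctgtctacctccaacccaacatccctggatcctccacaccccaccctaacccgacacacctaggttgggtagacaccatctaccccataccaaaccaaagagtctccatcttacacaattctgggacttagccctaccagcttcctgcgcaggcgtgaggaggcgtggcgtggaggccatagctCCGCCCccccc
Elovl5: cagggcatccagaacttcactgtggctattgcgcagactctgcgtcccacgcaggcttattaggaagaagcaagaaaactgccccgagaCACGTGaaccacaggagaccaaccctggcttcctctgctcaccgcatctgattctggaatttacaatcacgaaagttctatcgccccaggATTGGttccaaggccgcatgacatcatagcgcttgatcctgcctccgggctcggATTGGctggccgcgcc
The Hmgcs1 promoter held 1 TCACNCCAC, 3 CCAAT and 2 GGGCGG matches, Acat2 held 1 GGGCGG, and Elovl5 held 2 CCAAT and 1 CACGTG.

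A promoter entry was found for 25 of the 32 genes, a single one for 21 and several for Dhcr7, Pmvk, Scap and Srebf1, where a match in any entry was counted. Among the 25 were 15 of the sterol and 6 of the fatty acid branch. CCAAT stood in 14 of 15 sterol promoters and 2 of 6 fatty acid promoters, against 33.8% of all 32851 promoter entries and 40.6% of the 7930 genes with an entry that were tested in unsorted crypts. GGGCGG also stood in 14 of 15 sterol and 2 of 6 fatty acid promoters, against 32.7% of all promoters and 64.7% of tested genes. The letters TCACNCCAC occurred in 1 of the 25, Hmgcs1, in 1.05% of all promoters and in 1.30% of tested genes. CACGTG occurred in 6 of the 25, in 6.02% of all promoters and in 10.3% of tested genes. These are matches of letters on both strands within 250 bases before the RefSeq start, exons of the GENCODE annotation included, and no binding was measured here.

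As a check of the series, Tert was low in every library, 0.251 and 0.459 RPKM in unsorted heterozygous crypts and 0.169 RPKM at most in the other libraries. The libraries labelled reactivated had 0.0171 and 0.0311 RPKM of Tert, within the range of the null G4 libraries (0.00778 and 0.0377 RPKM). Null G3 replicate 2 (0.0787 RPKM) lay within that of sorted heterozygous cells. Tert thus did not bear out the label of these libraries, and the labels are used as given without that support. The epithelial marker Epcam was at 134 to 414 RPKM in all 12 libraries. Among markers of fat cells, whose lipid synthesis could add to these values, Adipoq, Plin1 and Fabp4 did not exceed 0.122 RPKM in unsorted crypts. With Cidec included, the 4 of 5 fat cell markers listed there summed to 2.20 RPKM in heterozygous replicate 2 and 0.368 to 1.00 RPKM in the other unsorted libraries. The 1 listed in sorted libraries, Cidec, was at 7.01 RPKM in null G3 replicate 1 and 0.119 RPKM at most in the others. Their part in the lipid gene values was not tested. One library stood apart. Sorted null G3 replicate 1 had 5424 genes at 1 RPKM or more against 7721 to 9144 in the other sorted libraries, and its 7 markers of small intestinal enterocytes summed to 5338 RPKM against 85.5 to 130. Its 6 markers of crypt base columnar cells, the population named in the label, summed to 6.64 RPKM against 142 to 197. Its 7 markers of cycling cells summed to 12.9 RPKM against 116 to 159.

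In unsorted crypts of null G4 mice 12 of the 32 genes (37.5%) rose over heterozygous crypts and 0 fell, where 4.97% of all 11464 tested genes rose and 0.576% fell (limma, adjusted p under 0.05). They were 7 of 18 sterol branch genes, 5 of 9 fatty acid branch genes and 0 of 5 regulators. The values are on the scale of log2(RPKM + 1), where RPKM counts reads relative to the length of the gene and the reads of the library. On this scale the median difference was 0.78 in the sterol branch, 1.20 in the fatty acid branch and 0.34 among regulators, and it was 0.36 over all tested genes, so the whole set of tested genes also stood higher in null G4. Relative to that median the branches stood at 0.41 and 0.83 and the regulators at -0.024. The lowest null G4 value exceeded the highest heterozygous value for 32 of 32 genes, but also for 74.7% of all tested genes (the reverse held for 6.5%).

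This count depended on the fit and on single libraries. It was 1, Fads1, after quantile normalization (1.18% of all genes) or after scaling libraries to one median (1.17%), 0 without a filter on low values (0.0624%), 15 with the replicate number as a block (10.1%) and 26 with only the 4 libraries of both groups fitted (49.2%). Without heterozygous replicate 1, heterozygous replicate 2, null G4 replicate 1 or null G4 replicate 2 it was 0, 2, 1 and 0 (0.996%, 1.63%, 0.961% and 0.759% of all genes rose), and without reactivated replicate 1 or 2 it was 24 and 25 (43.2% and 43.7% of all genes). Both heterozygous libraries expressed the Y-linked gene Ddx3y (4.73 and 4.78 RPKM) and both null G4 libraries did not (0.00574 RPKM at most), so genotype and Y-linked expression cannot be told apart between these groups, and with a term for Y-linked expression, which rests on the reactivated libraries, the count was 0 (0.515%).

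**Figure D1:**
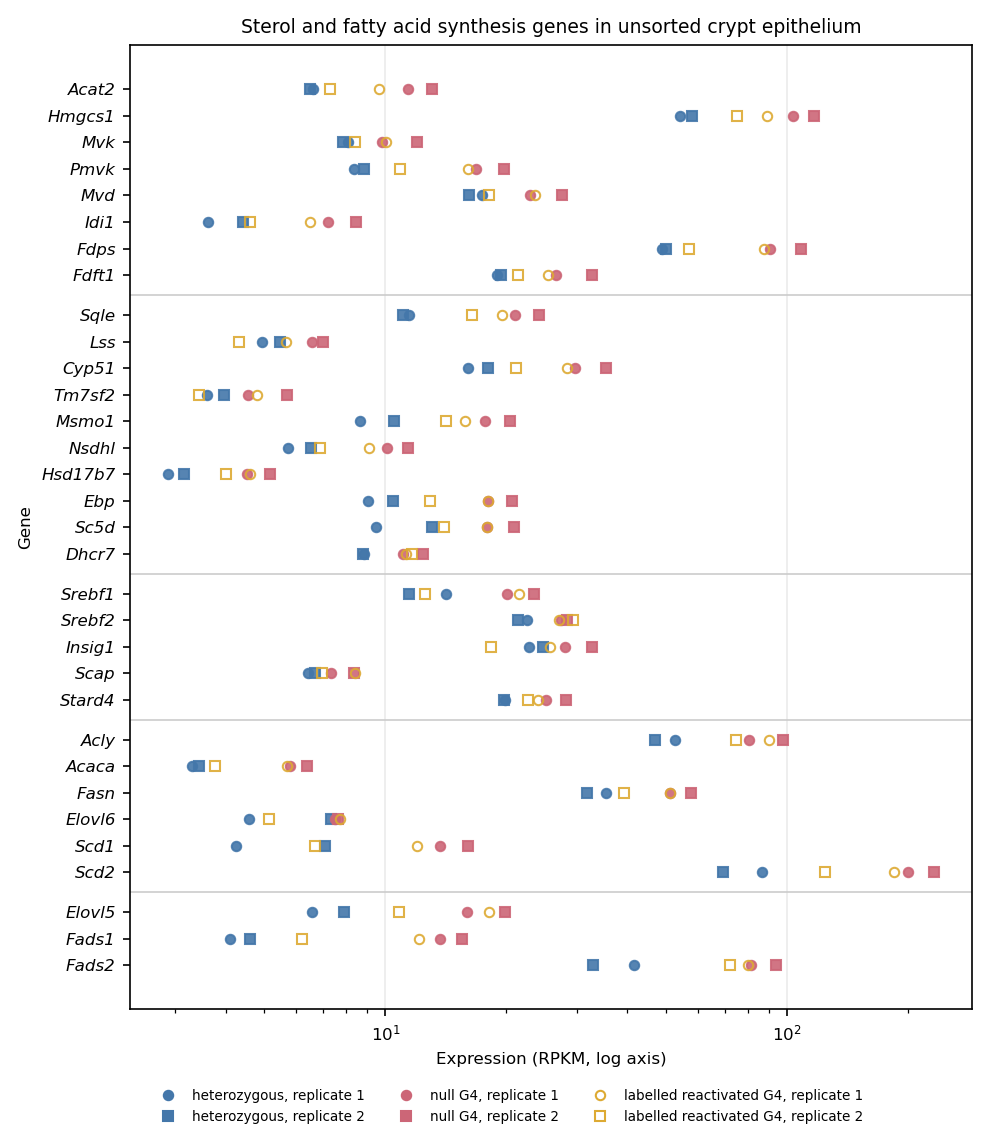
Expression of the 32 genes in the 6 unsorted libraries in RPKM on a log axis, with 1 row per gene, separated by role, and 1 symbol per library. For every gene both null G4 libraries (red) lie to the right of both heterozygous ones (blue), and the libraries labelled reactivated (open) lie between or near them, with replicate 2 to the left of replicate 1 for 30 of the 32 genes.

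Among the mevalonate genes 4 of 8 rose. Acat2, which joins acetyl-CoA units in the first step, was at 6.59 and 6.49 RPKM in heterozygous crypts and 11.4 and 13.05 RPKM in null G4 ones, a difference of 0.81, SE 0.18, adjusted p = 0.0456. Hmgcs1 makes HMG-CoA and was the most abundant gene of this group, at 54.05 and 57.8 RPKM in heterozygous crypts and 103 and 117 RPKM in null G4 ones (0.96, SE 0.23, adjusted p = 0.0498). The phosphorylation of mevalonate is completed by Pmvk, which rose from 8.34 and 8.86 RPKM to 16.8 and 19.7 RPKM (1.00, SE 0.22, adjusted p = 0.042). In each of these genes the gap between the groups was wider than the distance between the replicates of either group. They were named because they passed in these libraries, so this adds no support of its own.

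Idi1, which interconverts the isoprenoid building blocks, was at 3.61 and 4.42 RPKM in heterozygous crypts and 7.22 and 8.43 RPKM in null G4 ones (0.82, SE 0.19, adjusted p = 0.0474). Fdps, which links these blocks into farnesyl pyrophosphate, was at 48.9 and 49.99 RPKM in heterozygous crypts and 90.8 and 108 RPKM in null G4 ones. Its difference was as large as that of Pmvk, 0.99, SE 0.27, adjusted p = 0.0545, and it did not pass. The other genes of this group also missed the threshold, with differences of 0.41 for mevalonate kinase (Mvk), 0.56 for the decarboxylase Mvd and 0.59 for squalene synthase (Fdft1). Their adjusted p-values in limma ran from 0.0717 to 0.114.

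From squalene to cholesterol 3 of 10 genes rose. Sqle, the epoxidase that adds oxygen to squalene, was at 11.5 and 11.05 RPKM in heterozygous crypts and 21.01 and 24.1 RPKM in null G4 ones (0.94, SE 0.19, adjusted p = 0.0347). For Msmo1, an oxidase that takes part in the removal of methyl groups from the sterol ring, the values were 8.67 and 10.5 RPKM and 17.7 and 20.5 RPKM (0.93, SE 0.19, adjusted p = 0.0358). Ebp, the sterol isomerase, rose from 9.05 and 10.4 RPKM to 17.99 and 20.6 RPKM (0.92, SE 0.21, adjusted p = 0.0466). In all of them the gap between the groups was again wider than the distance between replicates, which adds no support, as they were picked by the same values. Ebp, like Nsdhl below, lies on the X chromosome.

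Cyp51, which removes the methyl group of lanosterol and was the most abundant gene of this group, was at 16.03 and 17.96 RPKM in heterozygous crypts and 29.6 and 35.4 RPKM in null G4 ones. It fell just short of the threshold (0.89, SE 0.22, adjusted p = 0.0507). The other 6 genes ran from 0.33 for Lss, the cyclase that makes lanosterol, to 0.74 for the desaturase Sc5d, with Tm7sf2 at 0.35, Dhcr7, a reductase of a late step, at 0.37, Hsd17b7 at 0.54 and Nsdhl at 0.72. Of the sterol branch, Lss and Dhcr7 took the other sign under both scalings, Mvk under quantile normalization, and Tm7sf2 under median scaling and with the Y-linked term.

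Of the 5 regulators 0 passed, and 1, Srebf1, had an unadjusted p under 0.05 (41.8% of all genes did so with a higher and 2.39% with a lower value). Srebf1, which encodes SREBP1, was at 14.1 and 11.4 RPKM in heterozygous crypts and 20.1 and 23.4 RPKM in null G4 ones, a difference of 0.73, SE 0.26, adjusted p = 0.0783. Srebf2, which encodes SREBP2, the main activator of the sterol branch, was at 22.6 and 21.3 RPKM and 27.3 and 28.3 RPKM (0.33, SE 0.19, adjusted p = 0.195). Insig1, the retention protein that is itself a target of SREBP, was at 22.8 and 24.7 RPKM and 28.01 and 32.6 RPKM (0.34, SE 0.22, adjusted p = 0.254). The groups did not overlap for any of these, although the distances for Srebf2 and Insig1 were no larger than the all-gene median.

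Stard4, which carries cholesterol between membranes, was at 19.9 and 19.7 RPKM in heterozygous crypts and 25.2 and 28.1 RPKM in null G4 ones (0.41, SE 0.19, adjusted p = 0.124). Scap, the escort of SREBP, differed by 0.23. After quantile normalization or median scaling the differences of Srebf2, Insig1, Scap and Stard4 turned below 0, and with the Y-linked term those of Srebf1, Insig1 and Scap did.

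Within the fatty acid branch the 5 genes that rose were the desaturases Scd1, Scd2, Fads1 and Fads2 and the elongase Elovl5. The other 4, Acly, Acaca, Fasn and Elovl6, did not pass, and 3 of them had an unadjusted p under 0.05 by limma. Of all genes 41.8% did so with a higher and 2.39% with a lower value. The desaturase Scd2, which makes monounsaturated fatty acids, was the most abundant of all 32 genes in unsorted crypts, at 86.5 and 69.04 RPKM in heterozygous crypts and 200.1 and 232 RPKM in null G4 ones (1.47, SE 0.28, adjusted p = 0.0307). Its paralog Scd1 was at 4.25 and 7.07 RPKM and 13.7 and 16.02 RPKM (1.28, SE 0.29, adjusted p = 0.04498). These paralogs are neighbours on chromosome 19 (Scd2 at 44293674 to 44306864, Scd1 at 44394455 to 44407879, GRCm38) and close in sequence, so reads shared between them make the single values uncertain.

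Fads1, the desaturase that completes arachidonic acid, showed the highest difference of the 32 genes. It was at 4.105 and 4.61 RPKM in heterozygous crypts and 13.7 and 15.5 RPKM in null G4 ones (1.54, SE 0.27, adjusted p = 0.0214), and it was the gene that also passed under either scaling. It kept its call in 4 of the 6 refits without 1 library, Scd1 in 3 and the other 10 genes in 2. Fads2, its neighbour on chromosome 19 and the desaturase that opens this pathway, was at 41.5 and 32.8 RPKM and 81.1 and 93.6 RPKM (1.22, SE 0.23, adjusted p = 0.0305). Elovl5, which lengthens the products of these desaturases, rose from 6.57 and 7.91 RPKM to 15.98 and 19.8 RPKM (1.20, SE 0.25, adjusted p = 0.0398). All 3 polyunsaturated fatty acid genes stood more than 1 log2 unit higher in null G4.

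Among the genes that build the chain, Acly, which makes cytosolic acetyl-CoA from citrate, was at 52.4 and 46.8 RPKM in heterozygous crypts and 80.4 and 97.5 RPKM in null G4 ones (0.83, SE 0.23, adjusted p = 0.0584). Acaca, the carboxylase that makes malonyl-CoA, was at 3.31 and 3.43 RPKM and 5.78 and 6.395 RPKM (0.70, SE 0.18, adjusted p = 0.0545). Fasn, the fatty acid synthase, differed by 0.68 and the elongase Elovl6 by 0.33, and the sign of Elovl6 turned under both scalings and with the Y-linked term.

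**Figure D2:**
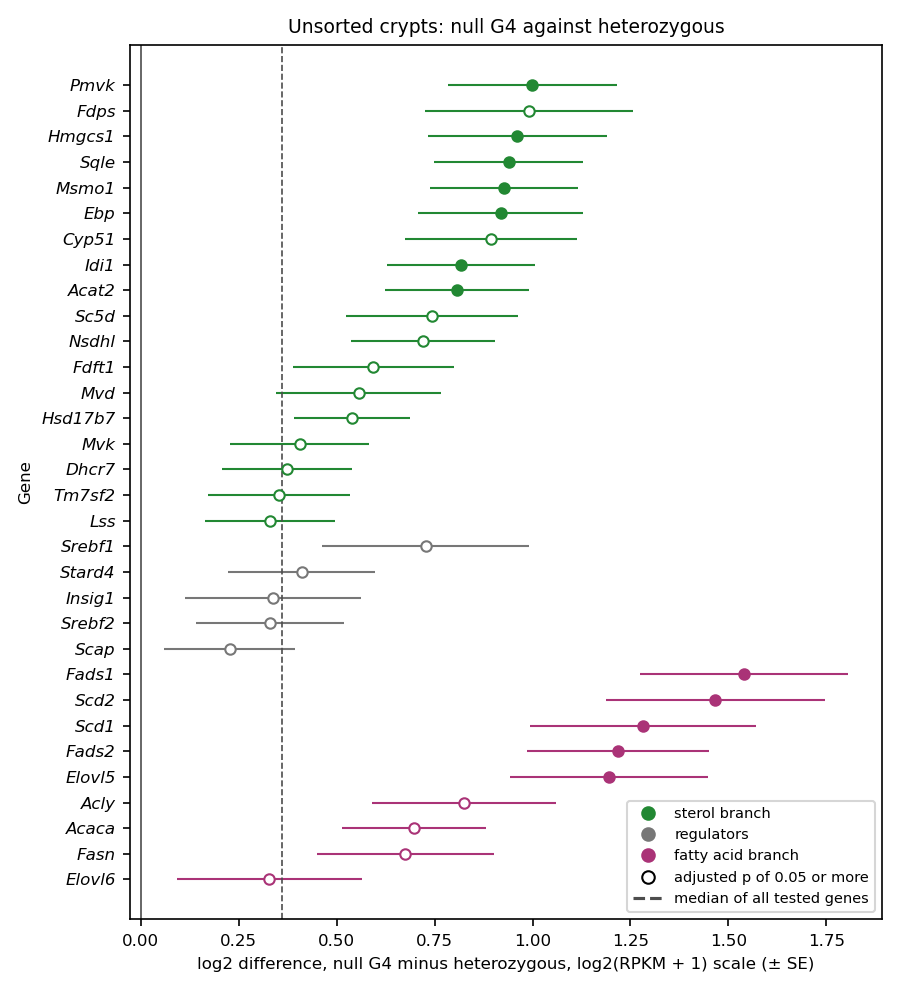
Difference between null G4 and heterozygous unsorted crypts for each of the 32 genes on the log2(RPKM + 1) scale, with bars of 1 SE from limma, colour by branch and filled points where the adjusted p was under 0.05. The dashed line is the all-gene median of 0.36, and the 5 filled fatty acid points lie at 1.20 or higher while the filled sterol points lie between 0.81 and 1.00.

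The branches were then compared within libraries, where the scaling of a library cancels in large part. In unsorted crypts the median log2 level of the sterol branch minus that of the fatty acid branch was 0.365 and 0.254 in the heterozygous libraries, 0.103 and 0.0189 in those of null G4 mice, and -0.174 and 0.168 in the libraries labelled reactivated. Both null G4 libraries lay below both heterozygous ones. The difference between the branch medians of the null G4 effect was -0.42, and no test was run on it. An SD of 0.070 between replicates of a group belongs to another quantity, the within-library difference. The group means of that were 0.309 in heterozygous and 0.061 in null G4 libraries. The difference of effects was -0.31 with means in place of medians and 0.014 when Elovl5, Fads1 and Fads2 were left out of the fatty acid branch. With means and without these 3 genes, an alternative chosen after the data were seen, it was -0.16. Leaving out 1 library gave -0.45 to -0.19, the latter without heterozygous replicate 2.

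**Figure D3:**
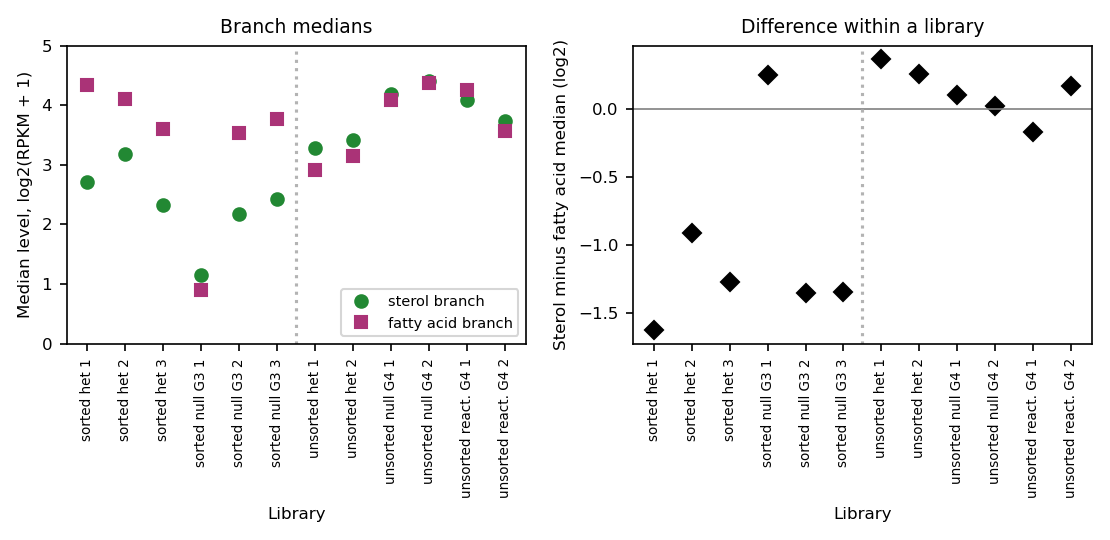
Left, median log2(RPKM + 1) of the 18 sterol and the 9 fatty acid branch genes in each of the 12 libraries. Right, the sterol median minus the fatty acid median in each library; it is near 0 in unsorted libraries (-0.174 to 0.365) and between -1.63 and -0.916 in 5 of the 6 sorted ones, with sorted null G3 replicate 1 at 0.248, and the dotted line separates the sets.

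Other measured features moved with the same comparison. Of 7 genes of cycling cells 5 rose in null G4 (4.97% of all genes did), with Mki67 at 20.4 and 19.6 RPKM in heterozygous crypts and 40.1 and 41.7 RPKM in null G4 ones (1.00, SE 0.22, adjusted p = 0.0442). The summed level of these 7 genes was 60.7 to 63.7 RPKM in heterozygous libraries, 134 to 148 RPKM in null G4, and 117 and 65.8 RPKM in reactivated replicates 1 and 2. Of 10 genes of the circadian clock 2 rose and 5 fell (0.576% of all genes fell), with Arntl at 1.49 and 2.497 RPKM in heterozygous crypts and 10.7 and 11.6 RPKM in null G4 ones, and Dbp at 6.18 and 4.89 and 0.293 and 0.215 RPKM. The markers of surface colonocytes summed to 3012 RPKM in heterozygous replicate 2 and to 797 to 1236 RPKM in the other unsorted libraries, and 0 of 5 passed. Of 6 goblet cell markers 2 fell, Clca3 and Fcgbp, while the median difference over the 6 was 0.042. The sum of all 6 was 4006 to 4021 RPKM in heterozygous and 3271 to 3356 RPKM in null G4 libraries. Of 6 tested markers of small intestinal enterocytes 1 fell, Rbp2, with a median difference of -1.54 over the 6. The share of mitochondrial ribosomal RNA in the RPKM total was 19.2% and 27.3% in the heterozygous libraries, 12.01% and 11.9% in those of null G4 mice, and 10.8% and 16.7% in the libraries labelled reactivated. The part of cell division, clock phase, cell composition and ribosomal RNA in the lipid gene differences was not tested, and in bulk RNA more cells of a type and more RNA per cell cannot be told apart.

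The wider pathways were counted over 58 further genes in 7 lists, of which 53 were tested in unsorted crypts. In null G4 against heterozygous crypts 2 of the 53 rose (3.77%, against 4.97% of all genes) and 0 fell. They were the elongase Elovl7, at 5.197 and 5.78 RPKM in heterozygous crypts and 11.97 and 13.5 RPKM in null G4 ones (1.08, SE 0.16, adjusted p = 0.0123), and the acyl-CoA synthetase Acsl4, at 1.88 and 2.03 and 4.21 and 4.59 RPKM (0.87, SE 0.18, adjusted p = 0.0388). Both are in a list of 9 genes of chain elongation and fatty acid activation, which had a median difference of 0.84, with Hsd17b12, which takes part in elongation, at 0.97, SE 0.24, adjusted p = 0.0507. The lists for SREBP processing (0 of 6, median 0.47), isoprenoids and dolichol (0 of 8, 0.46), supply of acetyl-CoA, citrate and NADPH (0 of 10, 0.43), sterol efflux and LXR (0 of 4, 0.37), sterol uptake, storage and transport (0 of 7, 0.29) and glycerolipid synthesis (0 of 9, 0.019) held no gene that passed. The highest estimates among them included G6pdx, which supplies NADPH through the pentose phosphate pathway, at 0.83, the farnesyl transferase subunit Fnta at 0.72, the sterol exporter Abcg5 at 0.69 and the retention protein Insig2 at 0.58.

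In the libraries labelled reactivated, 0 of the 32 genes passed against null G4 (limma; 0.0174% of all genes rose and 0.00872% fell), and 5 had an unadjusted p under 0.05 (1.99% of all genes did so with a lower and 0.715% with a higher value). Against heterozygous crypts 0 of 32 passed as well, where 1.13% of all genes rose and 0.148% fell, and 11 had an unadjusted p under 0.05 (12.4% of all genes with a higher and 1.7% with a lower value). These comparisons share libraries with the one above, so their values are given side by side only. The median difference of the 32 genes was -0.33 against null G4 (all genes -0.14) and 0.39 against heterozygous crypts (all genes 0.22). The lower reactivated values did not overlap with null G4 for 19 genes (25.5% of all genes), and the higher ones did not overlap with heterozygous crypts for 26 (46.7%).

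The replicates labelled reactivated differed from each other. Replicate 1 lay above both heterozygous libraries for 32 of 32 genes (81.0% of all tested genes) and below both null G4 libraries for 20 (31.98%), and replicate 2 did so for 26 (50.5%) and 30 (78.2%). Replicate 1 was the higher one for 30 of 32 genes, as it was for 83.3% of all tested genes. Its median distance above the heterozygous mean was 0.60 on the log2 scale (0.36 over all genes), against 0.23 for replicate 2 (0.081 over all genes). Replicate 2 expressed Ddx3y (4.75 RPKM) as the heterozygous libraries did and replicate 1 did not (0 RPKM), and their Arntl values of 9.11 RPKM in replicate 1 and 2.83 RPKM in replicate 2 lay near the null G4 and the heterozygous values. Without replicate 2, 9 genes passed against heterozygous crypts (15.4% of all genes), namely Pmvk, Sqle, Hsd17b7, Ebp, Acaca, Scd2, Elovl5, Fads1 and Fads2. Without replicate 1, 0 passed.

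The values of single genes followed the same order. Fads1 was at 12.1 and 6.202 RPKM in reactivated replicates 1 and 2, a difference of -0.68, SE 0.27, adjusted p = 0.833 from null G4 and 0.86, SE 0.27, adjusted p = 0.233 from heterozygous crypts. For Fads2 the values were 79.8 and 72.2 RPKM, both closer to null G4 than to heterozygous crypts (1.02, SE 0.23, adjusted p = 0.101 against heterozygous crypts). Scd2 was at 184 and 124 RPKM, both between the other groups. For Scd1, replicate 1 at 11.99 RPKM stood near null G4 and replicate 2 at 6.69 RPKM within the heterozygous range. Elovl5 was at 18.1 and 10.8 RPKM, with replicate 1 inside the null G4 range and replicate 2 below it.

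In the sterol branch, Hmgcs1 was at 89.2 and 75.2 RPKM, Fdps at 87.4 and 57.1 RPKM and Cyp51 at 28.3 and 21.1 RPKM in reactivated replicates 1 and 2. The same libraries had Acat2 at 9.64 and 7.27 RPKM, Pmvk at 16.04 and 10.9 RPKM and Idi1 at 6.49 and 4.61 RPKM. In all of these replicate 2 was the lower one and lay above both heterozygous libraries. Sqle, at 19.6 and 16.4 RPKM, and Msmo1, at 15.8 and 14.2 RPKM, lay between the groups in both replicates, with differences from heterozygous crypts of 0.62, SE 0.19, adjusted p = 0.229 and 0.60, SE 0.19, adjusted p = 0.244. Ebp was at 18.01 and 12.9 RPKM, with replicate 1 inside the null G4 range.

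Among the other named genes, Acly was at 89.8 and 74.5 RPKM and Acaca at 5.68 and 3.76 RPKM in the libraries labelled reactivated. The regulator Srebf1 was at 21.5 and 12.5 RPKM, Srebf2 at 27.1 and 29.3 RPKM, Insig1 at 25.7 and 18.3 RPKM and Stard4 at 23.9 and 22.7 RPKM. Srebf2 was the exception to the order of the replicates among them, with replicate 2 above both null G4 libraries, and Insig1 of replicate 2 lay below both heterozygous ones. The remaining 12 genes differed from null G4 by -0.39 (Nsdhl) to -0.028 (Scap) and from heterozygous crypts by -0.057 (Lss) to 0.47 (Sc5d). Between the branch medians the reactivated effect differed by -0.0028 against null G4 and by -0.32 against heterozygous crypts. The latter was -0.12 without Elovl5, Fads1 and Fads2. The within-library difference, another quantity, had an SD of 0.18 between replicates of a group in either comparison.

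In sorted crypt base columnar cells 0 of the 32 genes passed between null G3 and heterozygous libraries, and neither did any of the 8734 tested genes (0% in each direction by limma, with 0.0114% higher and 1.63% lower at an unadjusted p under 0.05). Of the 32, 1 had an unadjusted p under 0.05, Mvd, with a difference of -1.44, SE 0.50, adjusted p = 0.481. All 32 estimates were below 0, with medians of -0.73 in the sterol branch, -1.28 in the fatty acid branch and -0.68 among the regulators, against -0.46 over all genes. Null G3 replicate 1 was low in crypt base columnar markers, as given above. It was the lowest sorted library for 30 of the 32 genes, as it was for 79.2% of all tested genes. For the elongase Elovl6 and the desaturase Sc5d it was the highest. The share of mitochondrial ribosomal RNA in the RPKM total ran from 38.7% to 53.6% in sorted heterozygous libraries and was 71.9%, 64.4% and 46.8% in null G3 libraries 1, 2 and 3, and its part in these differences was not tested.

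Without null G3 replicate 1 the median of the 32 genes was -0.34 (all genes -0.18), 31 of 32 estimates stayed below 0, and Acat2 turned to 0.026. Of the 32 genes 28 then lay below the all-gene median, and 0 passed. With all libraries the null G3 values lay below the heterozygous ones without overlap for 6 genes (12.6% of all genes), which were Hmgcs1, Idi1, Fdps, Fdft1, Sqle and Acly. Signs under the scalings were looked up here for 15 genes only, those that passed in null G4 crypts or did not overlap in sorted cells. Among these the sign of Ebp turned under median scaling (0.038). With all libraries 4 of the 32 genes, Sc5d, Elovl6, Hsd17b7 and Tm7sf2, lay above the all-gene median. These were not among the 15, so more signs may turn under scaling.

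**Figure D4:**
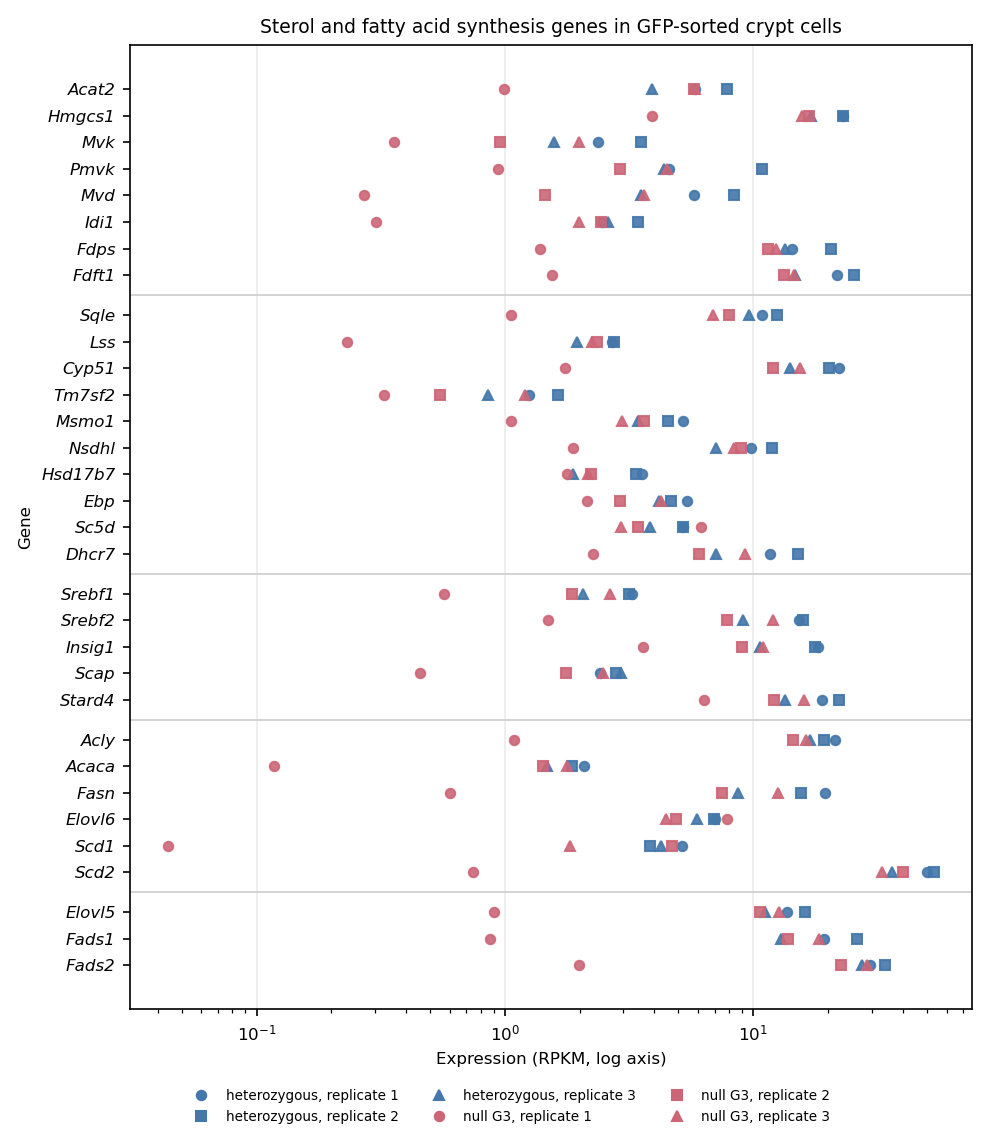
Expression of the 32 genes in the 6 sorted libraries in RPKM on a log axis, with 1 row per gene and 1 symbol per library. Null G3 replicate 1 (red circle) is far to the left for most genes and furthest to the right for Elovl6 and Sc5d. Null G3 replicates 2 and 3 lie within or below the heterozygous range. Mvd of replicate 2 (1.45 RPKM, lowest heterozygous value 3.53 RPKM) and Scd1 of replicate 3 (1.83 RPKM, lowest heterozygous value 3.85 RPKM) lie well below it.

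In the fatty acid branch, Scd2 was at 50.2, 53.3 and 36.2 RPKM in sorted heterozygous and 0.743, 40.2 and 32.9 RPKM in null G3 libraries 1, 2 and 3 (-1.80, SE 1.04, adjusted p = 0.481). Fads1 was at 19.3, 26.1 and 12.97 RPKM and 0.868, 13.8 and 18.4 RPKM (-1.28, SE 0.80, adjusted p = 0.481), and Fads2 at 29.6, 33.9 and 27.5 RPKM and 1.99, 22.5 and 28.7 RPKM. Elovl5 was at 13.7, 16.1 and 11.2 RPKM and 0.902, 10.6 and 12.6 RPKM. In each of them at least 1 of null G3 replicates 2 and 3 lay within the heterozygous range, and replicate 1 lay far below it. Scd1 was at 5.14, 3.85 and 4.24 RPKM and 0.0442, 4.71 and 1.83 RPKM, with replicate 3 also low. The chain-building gene Acly was at 21.3, 19.3 and 16.9 RPKM and 1.09, 14.5 and 16.4 RPKM, and Acaca at 2.07, 1.86 and 1.48 RPKM and 0.118, 1.42 and 1.78 RPKM.

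Among sterol genes without overlap, Sqle was at 10.8, 12.5 and 9.58 RPKM in sorted heterozygous and 1.06, 7.95 and 6.898 RPKM in null G3 libraries (-1.18, SE 0.55, adjusted p = 0.481). Hmgcs1 was at 22.9, 22.9 and 17.1 RPKM and 3.91, 16.7 and 15.7 RPKM (-0.94, SE 0.54, adjusted p = 0.481). Fdps was at 14.3, 20.5 and 13.4 RPKM and 1.39, 11.5 and 12.4 RPKM, and Idi1 at 2.46, 3.43 and 2.598 RPKM and 0.302, 2.45 and 1.995 RPKM. In these 4 genes null G3 replicates 2 and 3 lay below the lowest heterozygous library by less than the heterozygous libraries differed among themselves.

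The other named sterol genes overlapped. Acat2 was at 5.85, 7.81 and 3.91 RPKM in sorted heterozygous and 0.992, 5.76 and 5.81 RPKM in null G3 libraries, and Pmvk at 4.58, 10.8 and 4.38 RPKM and 0.941, 2.9 and 4.48 RPKM. Msmo1 was at 5.23, 4.52 and 3.43 RPKM and 1.06, 3.63 and 2.97 RPKM, Ebp at 5.396, 4.69 and 4.16 RPKM and 2.14, 2.89 and 4.26 RPKM, and Cyp51 at 22.2, 20.1 and 14.1 RPKM and 1.74, 12.04 and 15.4 RPKM. Null G3 replicate 3 reached into the heterozygous range for Acat2, Pmvk, Ebp and Cyp51. The regulators did the same, with Srebf1 at 3.24, 3.15 and 2.07 RPKM and 0.569, 1.87 and 2.64 RPKM, Srebf2 at 15.2, 15.9 and 9.08 RPKM and 1.49, 7.83 and 12.03 RPKM, Insig1 at 18.2, 17.8 and 10.7 RPKM and 3.61, 8.98 and 10.9 RPKM, and Stard4 at 18.9, 22.2 and 13.4 RPKM and 6.32, 12.1 and 15.97 RPKM. Differences of the remaining 12 genes ran from -1.44 (Mvd) to -0.19 (Sc5d).

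Between the branches, the sterol median minus the fatty acid median was -1.63, -0.916 and -1.28 in sorted heterozygous libraries and 0.248, -1.36 and -1.34 in null G3 libraries 1, 2 and 3. The effect of null G3 differed by 0.55 between branches. The within-library difference, another quantity, had a larger SD of 0.70 between replicates of a group. Without replicate 1 the difference of effects was -0.068.

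The null effects of the sorted and the unsorted cells were set against each other in one fit of all 12 libraries. The null G3 effect minus the null G4 effect was below 0 for all 32 genes, from -3.27 for Scd2 to -0.54 for Elovl6, with an all-gene median of -0.73. By limma 0 of the 32 passed (0.303% of all genes passed with a lower and 0% with a higher value), and 19 had an unadjusted p under 0.05 (25.2% of all genes with a lower and 0.877% with a higher value). Adjusted p ran from 0.1903 to 0.307. The count was 3 without null G3 replicate 1 (1.67% of all genes) and 18 without null G3 replicate 3 (29.5%). Generation, cell population and library set differ together here and cannot be told apart.

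Levels in sorted and unsorted heterozygous libraries are described without a test, because the sets appear to have been normalized separately. Fads1 stood out among the 32 genes, with means of 4.36 ± 0.36 RPKM (SD, n = 2) in unsorted crypts and 19.5 ± 6.57 RPKM (SD, n = 3) in sorted cells, a ratio of 0.224. Elovl5 had a ratio of 0.529 and Nsdhl, a dehydrogenase of the sterol branch, 0.637. At the other end Srebf1 had 4.53 times the sorted level in unsorted crypts, and the mevalonate genes Mvk, Fdps, Mvd and Hmgcs1 had 3.18, 3.08, 2.85 and 2.67 times. The other mevalonate genes, Idi1, Pmvk, Acat2 and Fdft1, had 1.42, 1.31, 1.12 and 0.93 times. The share of mitochondrial ribosomal RNA was 38.7% to 53.6% in sorted and 19.2% and 27.3% in unsorted heterozygous libraries. Its part in these ratios was not tested. The ratio for Acly was 2.59, for Fasn 2.31 and for Fads2 1.23. The sterol median minus the fatty acid median was above 0 in both unsorted and below 0 in all 3 sorted heterozygous libraries, as given above.

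**Figure D5:**
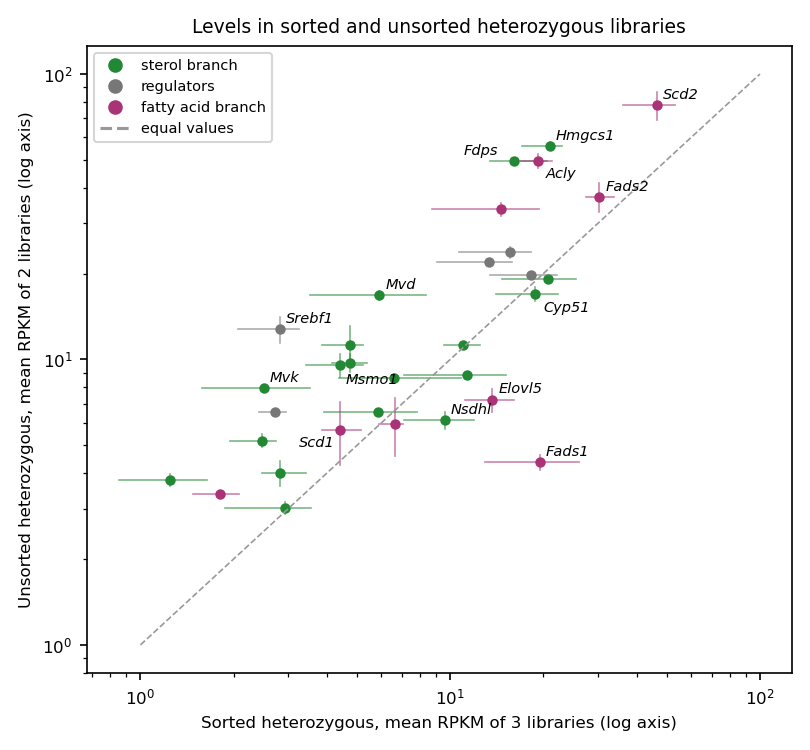
Mean RPKM of each of the 32 genes in the 2 unsorted against the 3 sorted heterozygous libraries, both on log axes, with bars from the lowest to the highest library of a group and a dashed line of equal values. Fads1 and Elovl5 lie below the line, and Srebf1, Mvk, Mvd and Fdps lie furthest above it together with Tm7sf2.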

How the data were processed

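The authors deposited one table of RPKM values (reads relative to gene length and library total) for 28793 genes in 12 libraries, and these values were used as deposited. Per the labels' protocols, RNA was purified with RNeasy columns and made into TruSeq libraries. STAR 2.3.0e and the mm10 build are listed, with no role given, per the submitters' processing notes, and the counter, annotation and use of strand were not given in the sources used here. RPKM relates each gene to the total of its library, so a change in a few abundant genes moves all others, and read totals were not used. The sorted table columns list 25686 genes, the unsorted ones 27658 and both 24551, so the sets appear to have been normalized separately, and tests stay within a set.

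Values were taken as log2(RPKM + 1) and a gene was tested where the number of libraries at 1 RPKM or above was no lower than the size of the smallest group in the fit. All 32 members passed this filter. Groups were compared with limma 3.58.1 (R 4.3.3) by moderated two-sided tests whose prior variance follows the mean level, p-values were adjusted by the Benjamini-Hochberg method across all genes tested, and the threshold was 0.05. The 6 sorted libraries, the 6 unsorted libraries and, for the difference of null effects, all 12 were fitted together. Branches were compared by the medians of their genes, without a test. The members and lists were chosen with earlier results of these data known. Values in every library were printed for members that passed and, per role, for the 3 of smallest p in null G4 against heterozygous crypts and the 2 of highest mean level. Promoters were to be printed for the 2 sterol and the 2 fatty acid branch genes of smallest p. Sqle, Fads1 and Scd2 had no entry and Pmvk had 2, so the next genes with a single RefSeq entry were taken, and Msmo1 and Fads2 were then left out because their windows lie mostly in an annotated exon. Alternatives were a pseudocount of 0.1, no filter, quantile normalization, median scaling, a replicate block, single libraries left out, only the 2 groups of a comparison fitted, and a term for Y-linked expression.

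On simulated data 200 genes were changed by 1 or 2 log2 units. The noise was normal at the fitted spread and independent between genes, and no library was shifted as a whole. The real libraries do shift as a whole, so these figures need not hold for them. The test recovered 9% and 76% of these in the sorted comparison, 78% and 99% for null G4 against heterozygous crypts, 81% and 100% for reactivated against null G4, 86% and 99% for reactivated against heterozygous crypts, and 3% and 42% for the difference of null effects. In the same order 1 of 86, 14 of 191, 20 of 201, 10 of 195 and 4 of 49 calls were false. Python 3.11.15 with pandas 2.3.3 was used for the summaries.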

Additional observations from a re-analysis of the deposited data

How the results depend on the processing

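With few libraries per group, the counts of genes that passed moved with the processing. The share of all tested genes that passed moved as well, as given with the counts above. In null G4 against heterozygous crypts 12 passed (4.97% of all genes rose). The count was 0 without a filter on low values (0.0624%), 1 after quantile normalization (1.18%) and 1 after median scaling (1.17%). It was 26 with only the 4 libraries of both groups fitted (49.2%) and 0 with the Y-linked term (0.515%). Leaving out 1 library gave 0 to 25. Reactivated against heterozygous crypts gave 0, and 0 to 9 with 1 library left out. The difference of null effects gave 0, and 0 to 18 with 1 library left out. The sorted comparison gave 0 in every alternative run. Both scalings move the all-gene median in null G4 from 0.36 to 0.016 (quantile) and 0.020 (median), and for the other changes the cause was not tested. Replicate numbers were not treated as pairing: same-numbered libraries had correlations of deviations of 0.053, -0.030 and -0.19 in the sorted set and 0.22, -0.069 and -0.12 between unsorted groups. With the replicate block the null G4 count was 15 (10.1% of all genes) and the others stayed at 0.

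The sterol minus fatty acid difference in null G4 was -0.42, and -0.31 with means, 0.014 without Elovl5, Fads1 and Fads2, -0.16 with means and without these (chosen after seeing the data), and -0.45 to -0.19 with 1 library left out. Reactivated against heterozygous crypts it was -0.12 without these 3 genes and -0.14 with means and without them.

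Single genes whose sign turned in null G4 against heterozygous crypts were, after quantile normalization, Mvk (-0.052), Lss (-0.073), Dhcr7 (-0.094), Srebf2 (-0.19), Insig1 (-0.18), Scap (-0.21), Stard4 (-0.12) and Elovl6 (-0.080). After median scaling they were Lss (-0.045), Tm7sf2 (-0.0042), Dhcr7 (-0.025), Srebf2 (-0.091), Insig1 (-0.085), Scap (-0.16), Stard4 (-0.0089) and Elovl6 (-0.050). With the Y-linked term they were Tm7sf2 (-0.031), Srebf1 (-0.011), Insig1 (-0.13), Scap (-0.016) and Elovl6 (-0.18). In the other comparisons, signs under these settings were looked up for 15 genes only. They were those that passed in null G4 crypts or did not overlap in sorted cells, so what follows is not complete for the 32 genes. In reactivated against null G4, Acly turned to 0.067 (quantile), 0.065 (median scaling) and 0.020 (Y-linked term) and ran from -0.25 to 0.025 with 1 library left out, and Elovl5 turned to 0.023 with the Y-linked term and ran from -0.67 to 0.023. In reactivated against heterozygous crypts Fdft1 turned to -0.092 after quantile normalization. Among all 32 genes, leaving out 1 library labelled reactivated also turned Tm7sf2 (-0.11), Srebf1 (-0.020), Elovl6 (-0.15), Lss (0.10) and Insig1 (0.11) against heterozygous crypts, and Srebf2 (-0.037), Scap (0.093) and Elovl6 (0.030) against null G4. In sorted cells Ebp turned to 0.038 after median scaling, and Acat2 ran from -0.86 to 0.026 with 1 library left out.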
